A study of Zea mays with 15 samples.

Results

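The regions described here held a called peak of the maize AUXIN RESPONSE FACTOR ARF34 (GRMZM2G081158) and of none of the other 13 ARFs with a peak list. A missing peak can be absent binding or binding below the calling limit. DAP-seq was used to map where purified proteins bind naked genomic DNA in vitro, with sheared DNA from young, field-grown ears of the inbred B73. Each of 14 ARFs was fused to glutathione S-transferase (GST), purified from E. coli and represented by 1 library and 1 peak list. A GST-HALO negative control was made in a wheat germ system and entered through the peak calling only, so the control protein came from another expression system than the ARFs. Before peak calling, 15 M mapped reads of ARF34 and 20 M of ARF27 had been kept. For the other libraries the study gives only a common range of reads. With 1 library per ARF no test between ARFs was possible, and the intervals given are 95% binomial intervals that cover counting error over sites only.

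The 386300 peaks of the 14 lists were merged wherever they overlapped by at least 1 bp, which gave 124379 sites. Of these, 50430 sites (40.5%) held peaks of a single list. The 74603 ARF34 peaks fell into 68819 sites, and 23270 of those sites (33.8%, interval 33.5 to 34.2%) held ARF34 peaks only. These ARF34-alone sites made up 18.7% of all merged sites and 46.1% of the sites of a single list. The other 45549 ARF34 sites held at least 1 more ARF and are called ARF34-shared sites. A site was called strong when its highest ARF34 signal, the read depth that the peak caller assigned to a peak, was in the top 20% of the ARF34 list, at 94.8 reads or more. Strong sites were 20.6% of all ARF34 sites. The ARF34-alone sites included 644 strong sites (2.77%, interval 2.56 to 2.99%) and 22626 weak sites (97.2%). The members were thus chosen by the presence and absence of peaks and split by ARF34 signal, so both measures, and the q value that goes with signal, are given as a description with no test.

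ARFs connect the hormone auxin to transcription. They bind DNA through an N-terminal B3-type domain that recognizes a TGTC core, and they can dimerize, so that closely spaced copies of the core can be bound together. ARF34 belongs to clade A, whose members are generally described as transcriptional activators in flowering plants, as do ARF4, ARF16, ARF18, ARF27, ARF29 and ARF35. The remaining ARFs profiled (ARF39, ARF36, ARF25, ARF14, ARF13, ARF10 and ARF7) belong to clade B, whose members are generally described as repressors.

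Most ARF34-alone sites were weak peaks. Their signal ranged between 18.0 and 346 reads with a median of 38.0, against a median of 63.8 and a maximum of 1776.9 reads in ARF34-shared sites. Strong ARF34-alone sites had a median of 112 reads, against 145.5 reads in strong ARF34-shared sites, and weak ARF34-alone sites had a median of 37.4 reads, against 49.9 reads in weak ARF34-shared sites. The ARF34-alone sites were therefore the lower ones within both classes. The significance of the peak over the GST-HALO control was ordered in the same way. The −log10 q value had a median of 7.22 in ARF34-alone sites and 13.72 in ARF34-shared sites, and a median of 26.36 in strong ARF34-alone sites and 36.17 in strong ARF34-shared sites.

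The share of ARF34 sites that held no other ARF fell from each of the following signal classes to the next higher one. Below 30 reads, 4208 of 6917 ARF34 sites (60.8%) were alone, and at 30 to 50 reads the share was 50.2%. It was 27.6% at 50 to 75 reads and 14.6% between 75 reads and the strong threshold. Among strong sites it was 8.59% up to 120 reads, 5.65% at 120 to 150 reads and 2.17% at 150 to 200 reads. Only 14 of 2196 sites at 200 to 300 reads (0.638%) and 1 of 1536 sites at 300 reads or more (0.0651%) were alone. Over the whole strong class 4.53% of 14202 sites were alone (interval 4.20 to 4.89%), against 41.4% of 54617 weak sites (interval 41.0 to 41.8%).

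**Figure D1:**
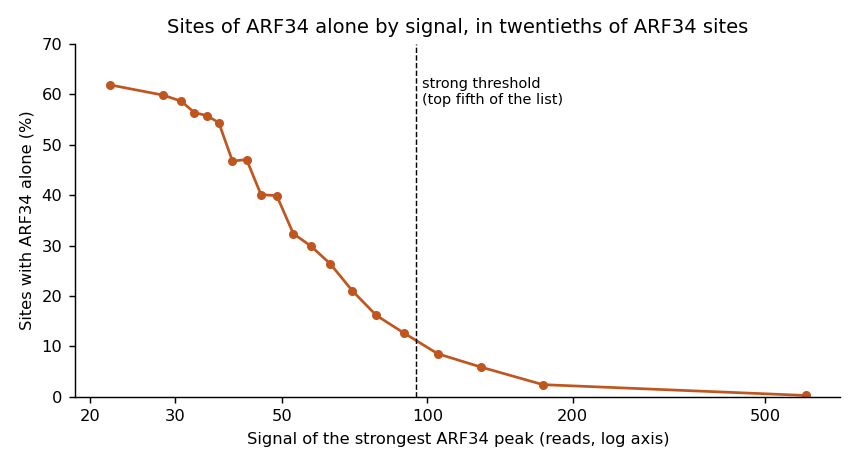
Share of ARF34 sites that held no peak of another ARF (percent, vertical axis) by the highest ARF34 signal of the site (reads, logarithmic horizontal axis), in 20 bins of about equal number of sites. The dashed line marks the strong threshold of 94.8 reads, and the share falls from 61.9% in the bin of lowest signal to 0.262% in the bin of highest signal.

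The strong threshold cut through a continuous range of values. There were 127 members within 5 reads above it and 154 members within 5 reads below it. The lowest strong members had 94.9 reads, among them chr1:173700136-173700528, chr2:120876981-120877181 and chr3:42247424-42247624 (B73 RefGen version 3). The highest weak members were chr2:48725571-48725771 and chr4:64542691-64542891 with 94.7 reads, followed by chr2:29339555-29339755 with 94.5 reads. At equal signal the alone and shared sites were also close in significance. Over 81 whole-read signal values between 19 and 103 reads, each with at least 20 sites of either kind, the median −log10 q of ARF34-alone sites was lower than that of ARF34-shared sites at 51 values, equal at 23 and higher at 7. The median difference (alone minus shared) was −0.26 and ranged between −1.09 and 0.75.

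The strongest ARF34-alone site, chr9:118573796-118573996, had 346 reads and a −log10 q of 95.7, and ranked 1107 in the ARF34 list. The nearest site of any other ARF was 11.29 kb away. A further strong site on the same chromosome, chr9:113654159-113654359, had 292 reads and lay 24.8 kb from the nearest site of another ARF. Neither had another ARF within 10 kb. Next in signal were chr10:103444471-103444671 with 279 reads, chr2:30172559-30172759 with 259 reads and chr9:156138953-156139153 with 257 reads. On chromosomes 7 and 6, chr7:107466358-107466558 had 253 reads and chr6:19961273-19961473 had 248.7 reads. Of the 10 strongest sites, only chr2:136208326-136208526 (238 reads) had other ARFs within 1 kb, 2 in number, with the nearest site at 0.623 kb. The last of the 10 were chr1:211733318-211733518 with 213 reads and chr7:1638732-1638968 with 201.3 reads. These 10 sites were spread over 6 chromosomes, and 9 of them had no other ARF within 1 kb. Of all strong ARF34-alone sites, 81.7% had none within 1 kb.

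ARF34 and ARF7 were the ARFs with the largest share of sites of their own. ARF34-alone sites were 33.8% of ARF34 sites, and ARF7-alone sites were 28.2% of 28028 ARF7 sites. The ARF25 list followed with 15.1% and ARF4 with 12.9%, and the other lists had at most 9.08%. The order of the lists was different for strong sites, taking as strong the top 20% of each list. The share of strong sites that were alone was 4.53% for ARF34 and 5.85% for ARF7 (342 of 5845 sites). The share was 1.23% for ARF35 (22 of 1794) and 0.871% for ARF4 (49 sites), and at most 0.375% for the others. ARF25, which ranked next to ARF7 by all sites, had 3 strong sites alone (0.0397% of 7566). The ARF34 list was the longest of the 14 and its strong class the largest, and the part of list length in these shares was not tested.

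**Figure D2:**
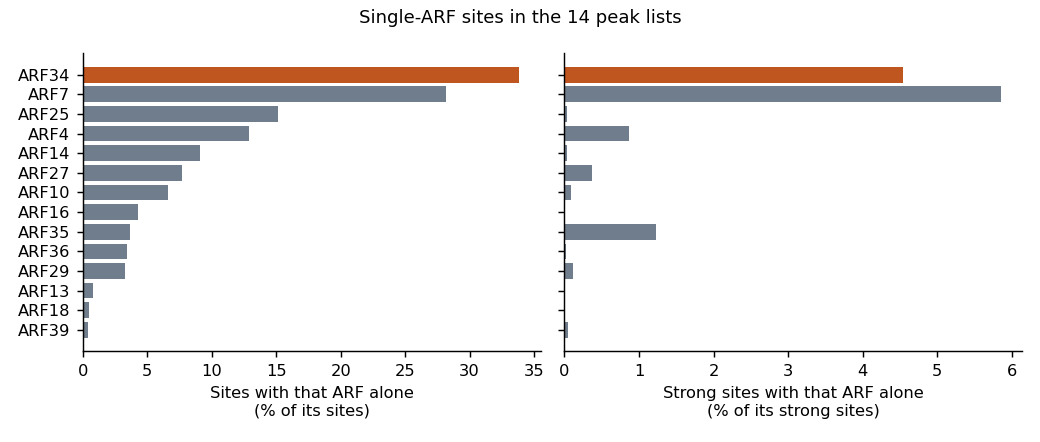
Share of the sites of each of the 14 ARFs that held no peak of another ARF (percent, horizontal axis), for the strong sites of each list (top 20% by signal in its own list) and for all its sites. ARF7 and ARF34 stand apart from the other 12 lists among strong sites, with 5.85% of ARF7 and 4.53% of ARF34 sites alone, against at most 1.23% in the others.

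A single further ARF was found at 13275 ARF34 sites (19.3%), and ARF16 was that ARF at 8966 of them (13.03% of ARF34 sites). ARF27 was the only partner at 1854 sites and ARF4 at 1264 sites, while ARF29, ARF18 and ARF35 were so at 138, 45 and 33 sites. Among clade B ARFs the number was highest for ARF7 with 295 sites and lowest for ARF13 and ARF39 with 6 each. The membership of the ARF34-alone class therefore depended on the ARF16 list more than on any other. Without the ARF16 list, 32260 ARF34 sites were alone, of which 1886 were strong. Leaving out any other single list gave between 23276 and 25140 ARF34-alone sites, of which 644 to 817 were strong.

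ARF34-alone sites occurred at a near constant density on all 10 chromosomes. The density was between 11.0 and 11.5 ARF34-alone sites per Mb, against 21.1 to 23.4 ARF34-shared sites per Mb, and the share alone was 33.0 to 35.1% of the ARF34 sites of a chromosome. Strong ARF34-alone sites were more uneven, with 0.262 per Mb on chromosome 8 and 0.390 per Mb on chromosome 7, on counts of 43 to 92 sites per chromosome. Within chromosomes, ARF34-alone sites were placed further from the ends. The outer 20% of a chromosome (10% at each end) held 22.6% of ARF34-alone sites (interval 22.0 to 23.1%), against 25.9% of ARF34-shared sites (interval 25.5 to 26.3%). The difference was −3.31 percentage points (Newcombe interval −3.97 to −2.63) and was below 0 on each of the 10 chromosomes, where it ranged between −6.56 and −0.66 points.

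The same difference was seen at both strengths. Strong sites lay in the outer 20% in 21.9% of ARF34-alone sites (141 of 644) and in 27.6% of ARF34-shared sites, a difference of −5.75 points (−8.87 to −2.31) that was below 0 on 8 of 10 chromosomes. Weak sites did so in 22.6% of ARF34-alone sites and 25.1% of ARF34-shared sites, a difference of −2.53 points (−3.25 to −1.81) on 10 of 10 chromosomes. In 5 classes of signal of nearly equal size, the difference was −4.89 points (−8.18 to −1.25) in the highest class and −1.37 points (−2.81 to 0.056) in the lowest, where the interval included 0. Among ARF34-alone sites, strong and weak sites could not be distinguished by position, with a difference of −0.681 points (−3.75 to 2.72).

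Sites of ARF34 and ARF16 only were the nearest reference, and the position of ARF34-alone sites could not be distinguished from theirs. The outer share was 22.6% in ARF34-alone sites and 21.8% in ARF34 and ARF16 sites, a difference of 0.786 points (−0.231 to 1.79). Across ARF34 sites of 1 to 7 lists the outer share increased with each list, being 22.6% for 1 list, 23.2% for 2 and 29.8% for 7. It was 24.2% for 8 lists, 24.6 to 30.3% for 9 to 13 lists and 36.3% for all 14. Seen along the chromosome, the share of strong ARF34 sites that were alone was 3.14% (2.47 to 3.99%) in the 5% nearest the ends and 5.92% (4.62 to 7.56%) in the 5% nearest the middle. For weak sites the shares were 38.3% (37.2 to 39.5%) at the ends and 44.1% (42.7 to 45.5%) in the middle.

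**Figure D3:**
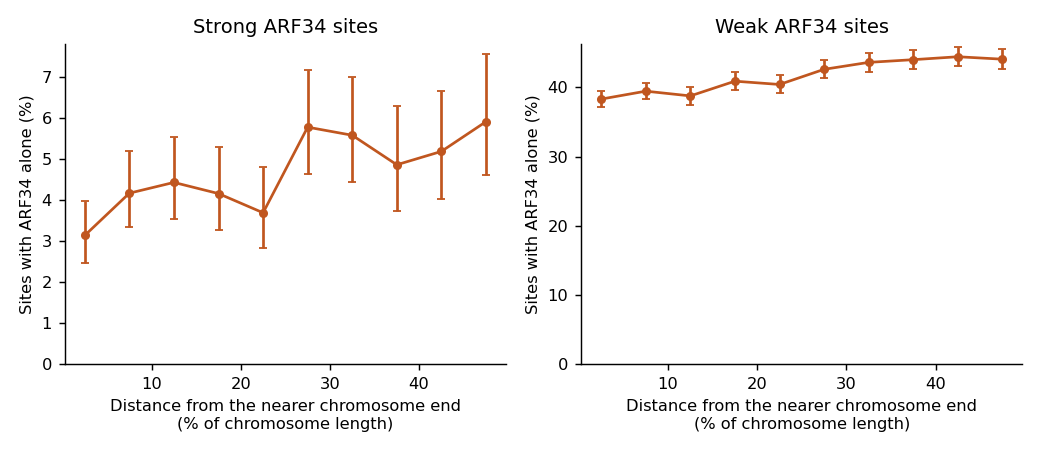
Share of ARF34 sites that were alone (percent, vertical axis) by the distance of the summit to the nearer chromosome end (percent of chromosome length, horizontal axis, 10 bins of 5%), for strong sites and for weak sites on separate scales, with 95% Wilson intervals. Strong sites were alone in 5.92% in the middle and 3.14% at the ends, and weak sites in 44.1% in the middle and 38.3% at the ends.

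The mix of alone and shared sites was also counted in bins of 1 Mb. Over the 1931 bins with at least 20 ARF34 sites, ARF34-alone sites were 3.70 to 70% of ARF34 sites. The median was 33.3% and the quartiles were 27.8 and 40%. This spread includes counting error in bins of few sites, and whether the mix varied beyond counting error was not tested. Most 10 kb windows with an ARF34-alone site held only 1. In these windows, 19566 held 1 such site, 1663 held 2, 116 held 3, 5 held 4 and 2 held 5. The numbers that the density of sites alone would give were not computed, so grouping was not tested. The windows with 5 were chr4:83630001-83640000, with signals between 33 and 164 reads and 1 strong site, and chr8:173830001-173840000, with signals between 23 and 68 reads and no strong site. A window on chromosome 7, chr7:107460001-107470000, held 4 ARF34-alone sites, among them the strong site of 253 reads named above. All ARF34 sites of these 3 windows were alone, and no site of another ARF lay in them. The strong site of the chromosome 4 window, chr4:83639216-83639416, nevertheless had an ARF18 site 840 bp away, beyond the window edge.

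ARF34-alone sites had fewer neighbouring ARF sites than ARF34-shared sites. A site with a peak of another ARF lay within 1 kb of 17.5% of ARF34-alone sites (4067 sites, interval 17.0 to 18.0%), against 22.5% of ARF34-shared sites (interval 22.2 to 22.9%). The difference was −5.07 points (−5.69 to −4.44) and was below 0 on 10 of 10 chromosomes. It was −9.10 points (−12.0 to −5.84) among strong sites, where the shares were 18.3% of ARF34-alone sites and 27.4% of ARF34-shared sites. Among weak sites it was −3.02 points (−3.69 to −2.36), with 17.5% of ARF34-alone sites and 20.5% of ARF34-shared sites. In 5 classes of signal of nearly equal size, the difference was −9.55 points (−12.5 to −6.16) in the highest class and −4.68 points (−6.31 to −2.97) in the next. In the other 3 classes the interval included 0, with differences of −1.20 (−2.59 to 0.218), −0.762 (−2.07 to 0.544) and −1.18 points (−2.42 to 0.0449) from the middle class down. The median distance to the nearest site with another ARF was 5027.5 bp for ARF34-alone sites and 3911 bp for ARF34-shared sites. As for position, ARF34-alone sites could not be distinguished from sites of ARF34 and ARF16 only, of which 17.1% had a neighbour (difference 0.368 points, −0.56 to 1.28).

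No other ARF was found within 1 kb of 19203 ARF34-alone sites (82.5%), including 526 strong sites (81.7%). A single other ARF was found near 1362 ARF34-alone sites and 7 or more ARFs near 502, while all 13 were found near 34 sites, 2 of them strong. The most isolated members were chr1:127342881-127343081, with 64.0 reads at 150.6 kb from the nearest site of another ARF, chr7:93550511-93550711, with 20.0 reads at 129.4 kb, and chr3:85287516-85287773, with 68.0 reads at 120.6 kb. None of these 3 was strong.

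The neighbours of ARF34-alone sites belonged more often to some lists than to others. An ARF16 site lay within 1 kb of 8.51% of ARF34-alone sites (interval 8.16 to 8.88%), against 12.3% of ARF34-shared sites. For ARF27 the share was 7.19% of ARF34-alone sites (interval 6.86 to 7.53%) against 11.5% of ARF34-shared sites, and for ARF4 it was 6.81% of ARF34-alone sites against 10.1% of ARF34-shared sites. Each of these lists was more often near a shared site. An ARF7 site was near 4.68% of ARF34-alone sites and 4.99% of ARF34-shared sites, a difference whose interval included 0 (−0.640 to 0.035 points). The same held for ARF14, which was near 4.28% of ARF34-alone sites and 4.58% of ARF34-shared sites (−0.619 to 0.0277 points). For every remaining list, of either clade, the interval of the difference lay below 0. Among these lists the clade B differences ranged between −2.26 points (ARF10) and −0.530 points (ARF39).

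The lists differed in length, so the share was also divided by the number of peaks in the list. Per 10000 peaks of the list, the share of ARF34-alone sites with a neighbour was highest for ARF35 (2.66 points), ARF29 (2.43), ARF4 (2.37), ARF27 (2.34), ARF18 (2.33) and ARF16 (2.02), which are the other clade A ARFs in the study. For the clade B ARFs it was 1.61 points for ARF10, 1.60 for ARF7, 1.54 for ARF36, 1.52 for ARF14, 1.42 for ARF39, 1.39 for ARF25 and 1.16 for ARF13. After this division the ranges of the clades did not overlap. Undivided, the shares did overlap. Clade B ARF10 (5.39%) and ARF25 (5.32%) lay above clade A ARF29 (3.44%), ARF35 (2.45%) and ARF18 (1.75%), and below clade A ARF16, ARF27 and ARF4. In ARF34-shared sites the values were 2.92 to 4.68 points for clade A lists and 1.59 to 2.28 points for clade B lists. The order of the clades was thus not particular to ARF34-alone sites.

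**Figure D4:**
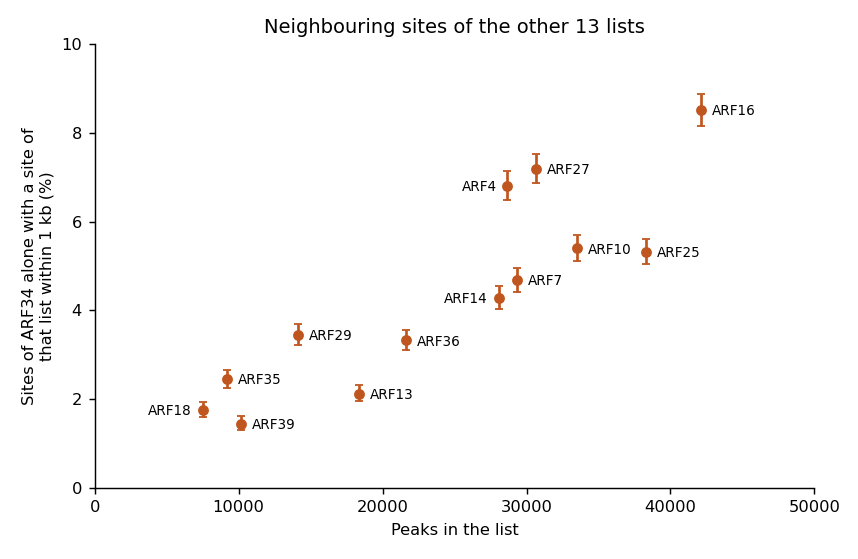
Share of ARF34-alone sites with a site of each of the other 13 ARFs within 1 kb (percent, vertical axis) against the number of peaks in the list of that ARF (horizontal axis), with 95% Wilson intervals. ARF16 has the highest share at 8.51%, and ARF27 (7.19%) and ARF4 (6.81%) lie above ARF10 (5.39%) and ARF25 (5.32%), whose lists are longer.

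Nearly all ARF34-alone sites consisted of 1 ARF34 peak. Only 381 of 23270 ARF34-alone sites (1.64%, interval 1.48 to 1.81%) held several ARF34 peaks, against 11.3% of ARF34-shared sites (interval 11.0 to 11.6%), a difference of −9.68 points (−10.0 to −9.34). Several peaks were found in 22 strong ARF34-alone sites (3.42%), against 18.1% of strong ARF34-shared sites, and in 1.59% of weak ARF34-alone sites, against 8.43% of weak ARF34-shared sites. A longer site offers more sequence for a peak of another list to overlap, so that a part of this difference was built into the rule and the difference was not taken as a property of the members. The member with most peaks, chr3:50312156-50312682, held 3 weak peaks of 24.5, 27.4 and 47.1 reads whose summits were 141 and 185 bp apart. Among the strong members, chr7:1638732-1638968 held peaks of 51.4 and 201.3 reads 36 bp apart, and chr5:36369056-36369278 held peaks of 156.2 and 57.8 reads 22 bp apart.

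In the few ARF34-alone sites with several peaks, the most frequent distance between adjacent summits was 70 bp. Of 382 pairs of adjacent ARF34 summits in ARF34-alone sites, 33 were 70 bp apart (8.64%, interval 6.22 to 11.9%), against 50 of 5066 pairs in ARF34-shared sites (0.987%, interval 0.750 to 1.30%). The next most frequent distances in ARF34-alone sites were 52 bp with 19 pairs (4.97% of ARF34-alone pairs, 1.16% of ARF34-shared pairs) and 82 bp with 11 pairs (2.88% of ARF34-alone pairs, 0.730% of ARF34-shared pairs). The most frequent distance in ARF34-shared sites, 30 bp, was found in 1 ARF34-alone pair (0.262%, interval 0.0462 to 1.47%), against 138 ARF34-shared pairs (2.72%, interval 2.31 to 3.21%). The median distance was 72 bp in ARF34-alone sites and 70 bp in ARF34-shared sites, and the lower quartile was 56 bp in ARF34-alone sites and 46 bp in ARF34-shared sites. These distances were chosen after their values were seen and are given as a description.

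The 33 pairs at 70 bp were found on all 10 chromosomes, and 1 of them was in a strong site. Their lower peak had 20.5 to 62.0 reads (median 30.5) and their higher peak 24.8 to 98.8 reads (median 58.5), and the higher peak was on the left in 18 pairs and on the right in 15. For comparison, 22 of all 381 ARF34-alone sites with several peaks were strong. In the whole ARF34 list the most frequent distance was 30 bp (139 of 5448 pairs), and 83 pairs (1.52%) were 70 bp apart. For the whole ARF27 list 70 bp was the most frequent distance (34 of 1955 pairs, 1.74%). For the whole ARF16 list the most frequent was 54 bp (76 of 3564 pairs), and 31 pairs (0.870%) were 70 bp apart. The sequence of these sites was not analysed here.

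**Figure D5:**
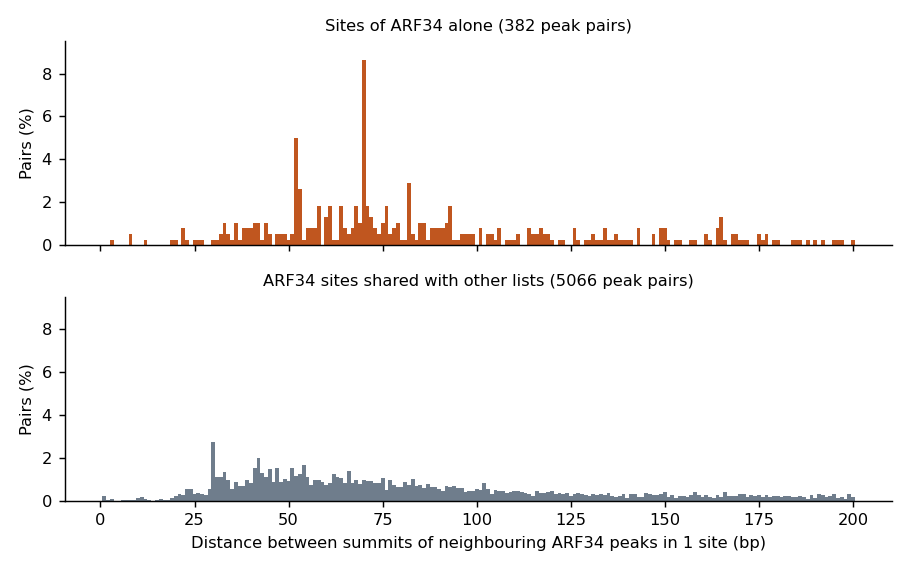
Distance between adjacent ARF34 summits within a site (bp, horizontal axis) as a share of all such pairs (percent, vertical axis), for ARF34-alone sites (382 pairs, top) and ARF34-shared sites (5066 pairs, bottom). The peaks of 70 bp and 52 bp in ARF34-alone sites reach 8.64% and 4.97%, and 30 bp is the most frequent distance in ARF34-shared sites with 2.72%.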

How the data were processed

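DAP-seq peak lists of 14 maize ARFs, 1 library each, were used as deposited, and samples were grouped by the ARF that the labels name. The authors trimmed the reads, mapped them with bowtie2 2.2.8 to the chromosomes of the B73 RefGen version 3 nuclear genome, kept reads of high mapping quality, which lowers coverage of repeated sequence, and called peaks per library with GEM against GST-HALO (false discovery limit 1e-05). The deposited signal is the read depth assigned to a peak and was not scaled between libraries by the authors, so it was compared only within a list. The p-value and q-value of a peak were deposited as −log10 values. The deposited display score was not used, and the deposited summit offset is the centre of every peak of 201 bp. Fragments were amplified by PCR, so intervals do not describe a second library. Neighbouring sites are not independent.

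Peaks were merged by at least 1 bp with numpy 2.4.6 and pandas 2.3.3 in Python 3.11.15. The merged sites were checked against bedtools 2.31.1, and the code was tested on simulated data. Shares have 95% Wilson intervals and differences Newcombe intervals. Position was taken from the strongest ARF34 summit, with the chromosome from 1 to the last peak end in any list. Named sites were the 10 strong members of highest signal, the 3 strong and 3 weak members nearest the threshold, the 3 members with most peaks, the 3 farthest from another list and the 3 windows of 10 kb with most members, with ties broken by signal. Members and measures were chosen with earlier results of these data known. Alternatives were equal list sizes, a stricter −log10 q limit of 10, overlap by at least 100 bp, 50% reciprocal overlap, lists left out, isolation by 1 kb and other definitions of strong, of chromosome ends and of distance. DNA motifs and genes near the sites were not analysed here.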

Additional observations from a re-analysis of the deposited data

How the results depend on the processing

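No result reversed. With peaks of a −log10 q of at least 10 only, 12774 ARF34-alone sites were found. Of these 1780 were strong, more than the 644 of the full lists. With equal list sizes (the strongest peaks of each list, 7520 per list) 1041 were found, out of at most 7520 ARF34 sites. The strong threshold stayed at 94.8 reads, and all ARF34 peaks kept in that setting lay above it. All 1041 were therefore strong by construction, and they too outnumbered the 644 strong ARF34-alone sites of the full lists. Without the ARF16 list 1886 were strong. With all lists kept whole and strong set at the top 10% of the ARF34 list, 104 were. The count of ARF34-alone sites changed by less than 1.5 times under the other 16 alternatives. Differences are alone minus shared, in percentage points. The outer share differed by −6.11 with equal list sizes, −4.55 without ARF16, −4.90 for the outer 40%, −5.75 in strong and −2.53 in weak sites. It differed by −4.56 when only ARF34-alone sites isolated by 1 kb were set against all ARF34-shared sites, which were not filtered for isolation. The share with several peaks differed by −8.86 with the stricter q, −4.40 with equal list sizes, −7.92 with overlap by at least 100 bp, −10.5 without ARF16, −14.7 in strong and −6.84 in weak sites. The share with a neighbour differed by −3.20 with the stricter q, −2.97 with equal list sizes, −5.78 with overlap by at least 100 bp, −6.29 without ARF16, −9.10 in strong and −3.02 in weak sites. The cause of these changes was not tested. Isolation by 1 kb leaves no neighbour of ARF34-alone sites to count. In alternatives added after seeing the data, 70 bp was the distance of 6.47% of ARF34-alone pairs with the stricter q, 5.26% without ARF16 and 11.6% with overlap by at least 100 bp. No paired analysis was possible because each ARF had 1 library. Alternatives that need a genome or gene annotation of B73 RefGen version 3 were not run. The depth of the other libraries, given only as a common range of reads, limits what an absent peak shows, since binding that is absent and binding below the calling limit cannot be told apart.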

Other observations

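Distances between adjacent ARF34 summits that lay in different sites were also counted up to 2 kb. Between 2 ARF34-alone sites the most frequent distance was 1648 bp, with 7 pairs, and 26 of 886 pairs (2.93%, interval 2.01 to 4.27%) lay at 1638 to 1658 bp. In the same range there were 44 of 3739 pairs of an ARF34-alone and an ARF34-shared site (1.18%, interval 0.878 to 1.58%) and 45 of 5029 pairs of ARF34-shared sites (0.895%, interval 0.669 to 1.20%). This distance was chosen after the values were seen.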
